A study of Mus musculus with 282 samples.

Results

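A panel of 7 regulators of blood stem cell maintenance, Hlf, Mecom, Prdm16, Meis1, Mllt3, Gata3 and Fgd5, were followed in single mouse hematopoietic stem cells (HSCs). The 7 genes are part of the 49671 Ensembl genes in the count table and were chosen by name, each matching 1 gene identifier. The cells came from bone marrow of mice homozygous for rtTA at Rosa26, a transactivator that needs doxycycline, and for a histone H2B-GFP transgene at Col1a1. The animals were not induced with doxycycline, were 12 to 22 weeks old and numbered 6 in 2 experiments, per the series description. The gate of the sort was LSK CD48-/lo CD150+ (lineage-negative, Sca-1-positive, Kit-positive), so there is 1 condition and no control group. The labels do not name the mouse of a cell. They give a library series (29 or 32) and an HSC code, which together form 6 sets of wells. In series 29 the codes are HSC-3 and HSC-4, and in series 32 they run from HSC-2 to HSC-5, so that L32 HSC-5 names code 5 of series 32. Whether the sets are separate animals is not stated, and p-values over sets speak only of how far sets differ from each other, for technical or other reasons.

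Of 282 wells, 232 held at least 100000 reads on genes and at least 1000 genes and were kept, between 22 and 46 per set. Kept cells had a median of 280096 gene reads (116009 to 1680714) and no molecular identifiers. Intervals cover only the error of counting reads or cells. Cells of L29 HSC-4 differed from the rest by fewer genes (median 4151 per cell against 5126 to 5685.5) and more mitochondrial reads (6.66% against 3.28% to 3.73%). Of the genes of the gate, Kit was detected in 84.5% of cells, Ly6a (Sca-1) in 72.4%, Slamf1 (CD150) in 19.4% and Cd48 in 0.862%, where detected means at least 10 CPM (reads scaled to the cell's total), or 2.8 reads in the median cell. Among markers of other cells, 6 of 12 T and NK cell genes (Cd3d, Cd3g, Cd2, Cd5, Ncr1 and Il7r) were detected in 0 cells. Of the 12, 0 reached 10% of cells. Of 10 mast cell, basophil and innate lymphoid genes 7 were detected in 0 cells and 1 (Rora) reached 10% of cells. Of 10 endothelial genes 4 reached 10% of cells (Tie1 48.3%, Emcn 28.4%, Pecam1 and Robo4 23.3% each), while the cadherin Cdh5 was detected in 0 cells. Of 10 megakaryocyte genes 7 reached 10% of cells (Cd9 68.5%, Mmrn1 65.5%), and of 10 myeloid genes 2 did (Lyz2 87.1%, Prtn3 81.9%). The erythroid list had 2 of 10 genes at 10% of cells (Hbb-bs and Hbb-bt) and the B cell list 1 of 10 (Cd79b). The part of these transcripts in the results was not tested.

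These proteins act at different levels. Hlf is a PAR-type basic leucine zipper transcription factor. Mecom and Prdm16 are related zinc finger proteins with a PR domain, and loss of either depletes HSCs in mice. Meis1 is a TALE homeodomain protein that binds DNA together with Pbx and Hox proteins. Mllt3 (AF9) is a reader of acylated histone lysine that recruits the methyltransferase Dot1l and elongation complexes, and it maintains human HSCs in culture. Gata3 is a zinc finger factor best known from T cells that also acts in HSCs. Fgd5 is an exchange factor for the GTPase Cdc42 and marks HSCs among mouse blood cells.

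In the mm10 coordinates of the count table, Hlf lies at chr11:90336536-90390895 and Meis1 at chr11:18879817-19018985. Mecom lies at chr3:29951296-30548008, Prdm16 at chr4:154316125-154636873, Mllt3 at chr4:87769925-88033364 and Gata3 at chr2:9857078-9890034, all of them, like Hlf and Meis1, on the minus strand. Fgd5 lies at chr6:91978878-92076004 on the plus strand. No source used here gives the strand setting of the counting, and 4 of the genes share exon bases with other annotated genes. Those neighbours held few reads in kept cells, 1183 beside the 40106 of Meis1, 70 beside the 16931 of Mecom, 11 beside the 5302 of Gata3 and 0 beside Prdm16.

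Promoter windows of all 7 genes, from 250 bases before to 50 after a start, are in RefSeq on GRCm38.p6 (9 windows, since Mecom and Mllt3 have 2 starts). The upstream Mecom start and Prdm16 are shown because they carry the longest run of letters that any pair of the windows shared, 24 bases, here in capitals. Hlf is shown for the palindrome TGACGTCA, in capitals, the site bound by CREB-type leucine zipper proteins. Each is written 5′ to 3′ on its gene's strand.
Mecom, chr3:30509710-30510009, minus strand: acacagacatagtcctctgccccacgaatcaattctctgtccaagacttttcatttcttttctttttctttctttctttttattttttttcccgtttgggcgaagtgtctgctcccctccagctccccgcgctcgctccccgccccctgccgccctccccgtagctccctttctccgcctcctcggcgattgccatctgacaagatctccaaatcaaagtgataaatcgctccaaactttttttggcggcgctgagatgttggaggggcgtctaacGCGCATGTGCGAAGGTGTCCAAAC
Prdm16, chr4:154636824-154637123, minus strand: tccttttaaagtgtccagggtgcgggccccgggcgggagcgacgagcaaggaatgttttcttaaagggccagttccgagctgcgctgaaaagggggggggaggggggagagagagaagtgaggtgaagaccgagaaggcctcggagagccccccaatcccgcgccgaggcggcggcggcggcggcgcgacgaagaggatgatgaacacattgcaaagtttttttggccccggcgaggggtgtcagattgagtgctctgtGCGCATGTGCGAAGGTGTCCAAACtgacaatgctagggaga
Hlf, chr11:90390868-90391167, minus strand: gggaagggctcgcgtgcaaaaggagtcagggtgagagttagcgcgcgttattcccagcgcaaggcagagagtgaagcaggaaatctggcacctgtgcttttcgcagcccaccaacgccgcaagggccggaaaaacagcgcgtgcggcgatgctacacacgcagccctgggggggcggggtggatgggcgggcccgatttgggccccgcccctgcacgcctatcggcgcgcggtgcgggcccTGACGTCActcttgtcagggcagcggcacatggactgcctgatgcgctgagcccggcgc

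The run shared by Mecom and Prdm16 begins 27 bases after the Mecom start and 10 bases after the Prdm16 start. In the Mecom window it ends at the last base, so a match past the window was not seen and 24 bases is the least length. The run lies after both starts, not upstream of them. Searched on both strands, it was found in 2 of the 32851 windows of the RefSeq table, those of these 2 genes. The next longest run, 15 bases, was shared by the 2 Mecom windows, and the other pairs shared 7 to 11 bases. The Hlf palindrome TGACGTCA was present in none of the other 8 windows and in 1.79% of all windows (both strands). TTACGTAA, the palindrome that PAR leucine zippers prefer, was in none of the 9 and in 0.119% of all windows. GATAA, a core of GATA sites, was in both Mecom windows and in no other of the 9, against 25.4% of all windows, and TGACAG, a MEIS core, was in the downstream Mecom window, the downstream Mllt3 window and the Fgd5 window, against 19.2%. CG dinucleotides numbered 37 for Fgd5, 30 for Hlf and 29 for the upstream Mllt3 window, where the median of all windows was 7. These are matches of letters, not sites of binding.

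Every kept cell held at least 1 of the 7 transcripts at 10 CPM, but few held all. In numbers, 9 cells held 1 gene, 25 held 2, 60 held 3, 67 held 4, 48 held 5, 19 held 6 and 4 held all 7. Cells with 7 had a median of 8299.5 genes and cells with 1 a median of 3602, while cells with 2 to 6 had 5207.5 to 5616. Detection thus moved with the number of genes at the ends of this range, and its part in the count of members was not tested.

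Meis1 was the most widely detected, in 89.6% ± 12.6 of cells (SD, n = 6 sets). Its share was 65.1% in L29 HSC-4, the set with the fewest genes, and 89.1% to 100% in the other sets. Hlf followed with 74.6% ± 7.1 (65.1% to 82.6%). Thus the TALE factor and the PAR leucine zipper were each detected in at least 65.1% of cells of every set. Mllt3 was detected in 64.8% ± 11.4 of cells, from 46.5% in L29 HSC-4 to 77.3% in L32 HSC-2. Mecom was detected in 60.6% ± 7.3 (52.3% to 68.2%). Gata3, Fgd5 and Prdm16 were detected in a minority of cells, with 40.7% ± 18.4, 28.4% ± 10.5 and 26.8% ± 9.4. The exact Clopper-Pearson 95% interval over all kept cells was 83.5% to 92.2% for Meis1 and 21.1% to 32.9% for Prdm16. It treats the cells as 1 sample and leaves out the spread between sets, 65.1% to 100% for Meis1 and 16.3% to 39.5% for Prdm16.

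**Figure D1:**
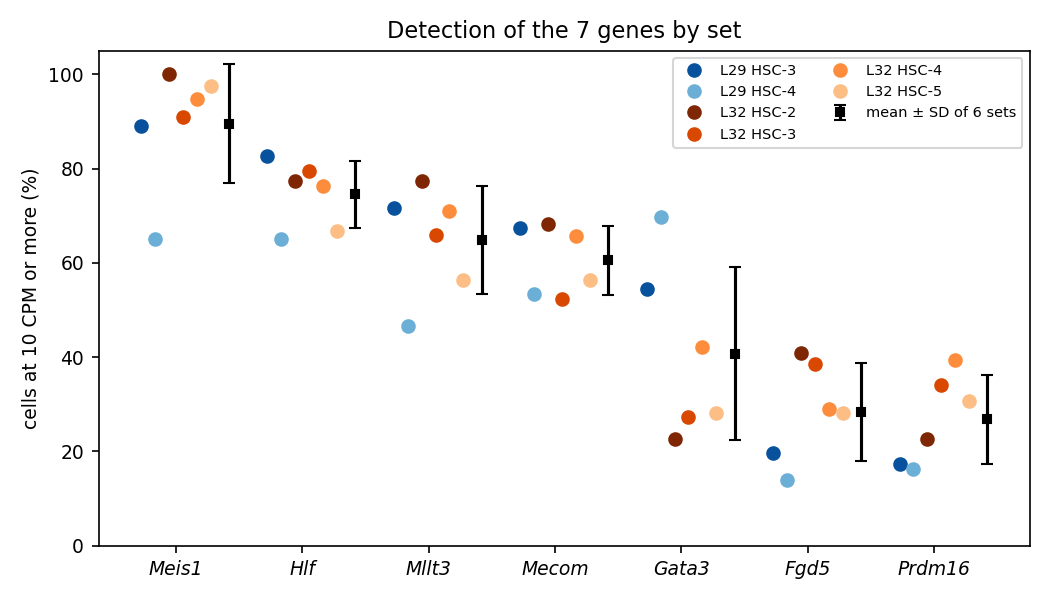
Share of cells in percent with at least 10 CPM of each gene (vertical axis) for the 6 sets (points) with their mean ± SD (square and bar). Meis1 in L29 HSC-4 sits at 65.1%, under all other sets, and the 2 L29 sets are highest for Gata3 and lowest for Fgd5 and Prdm16.

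The split between library series was not alike for the 7 genes. Detection in all 4 L32 sets lay above both L29 sets for Meis1, Prdm16 and Fgd5, a pattern that 22% of the 9689 genes detected in at least 10% of cells also had. For Fgd5 the shares were 19.6% and 14.0% in L29 against 28.2% to 40.9% in L32. For Prdm16 they were 17.4% and 16.3% against 22.7% to 39.5%. After all cells were thinned to 100000 reads and counted at 1 read or more, the Fgd5 groups stayed apart (21.7% and 16.3% against 33.3% to 45.5%) and those of Prdm16 overlapped (28.3% and 23.3% against 27.3% to 47.4%).

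Gata3 went the other way, with 54.3% and 69.8% of L29 cells against 22.7%, 27.3%, 42.1% and 28.2% in L32. Of all 9689 genes, 5.69% had every L32 set below both L29 sets. The Gata3 reads behind the shares differed in kind. In L29, 65.2% and 86.0% of cells held Gata3 reads but under 50 CPM, at a median of 2 and 5 reads per such cell, and only 8.70% and 9.30% held none. In L32, 5.26% to 27.3% of cells lay in that low band and 51.3% to 63.6% held none. A larger gap in the low band between L29 and L32 was seen for 10 of the 9689 genes. Abtb2 and Shisal1 are among these 10, and the others are predicted or clone-named genes and a pseudogene (singled out after the values were seen).

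Gata3 reads were not limited to kept cells. All 5 L29 wells that failed the filter also held Gata3 reads, 1 to 16 each, against 8 of 45 failed wells of L32, with 0 to 3 reads each. The failed L32 wells were shallower, with medians of 12136 and 9922.5 gene reads in HSC-2 and HSC-3. The 1 failed well of L29 HSC-3 held 81978 gene reads, and the 4 of L29 HSC-4 had a median of 59169. Summed per set, Gata3 stood at 11.6 and 13.6 CPM in the failed L32 wells against 195 and 77.4 CPM in those of L29. These L29 values lie above the 50 CPM that bounds the low band, so the band itself was not shown in failed wells. At 50 CPM, Gata3 was present in 26.1% and 4.65% of L29 cells and in 9.09%, 22.7%, 39.5% and 28.2% of L32 cells, and the series overlapped. Detection of Gata3 in L29 therefore rests largely on a few reads a cell, whose source was not tested. Meis1, Prdm16 and Fgd5 kept their order at 50 CPM, with L29 at 78.3% and 62.8% against 84.1% to 100% for Meis1, 15.2% and 16.3% against 22.7% to 28.2% for Prdm16 and 17.4% and 14.0% against 23.7% to 40.9% for Fgd5.

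Levels in single cells were wide. Among cells in which a gene was detected, its median ran from 51.7 CPM for Gata3 to 489.9 CPM for Meis1. Over all 232 cells Meis1 had a median of 450.8 CPM and reached 2285 CPM, and 9.48% of cells held no read. Hlf had a median of 222.8 CPM and reached 1656 CPM, with 21.1% of cells at 0. Mecom, at a median of 35.3 CPM, had the highest single value, 3460 CPM. So Meis1 and Hlf were spread more evenly over cells than Mecom, although only 27.2% of cells held no Mecom read. The 23 highest cells (10% of cells) held 28.5% of the Meis1 CPM, 36.5% of Hlf, 41.9% of Mllt3, 49.9% of Mecom, 63.3% of Gata3, 69.5% of Fgd5 and 71.7% of Prdm16.

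**Figure D2:**
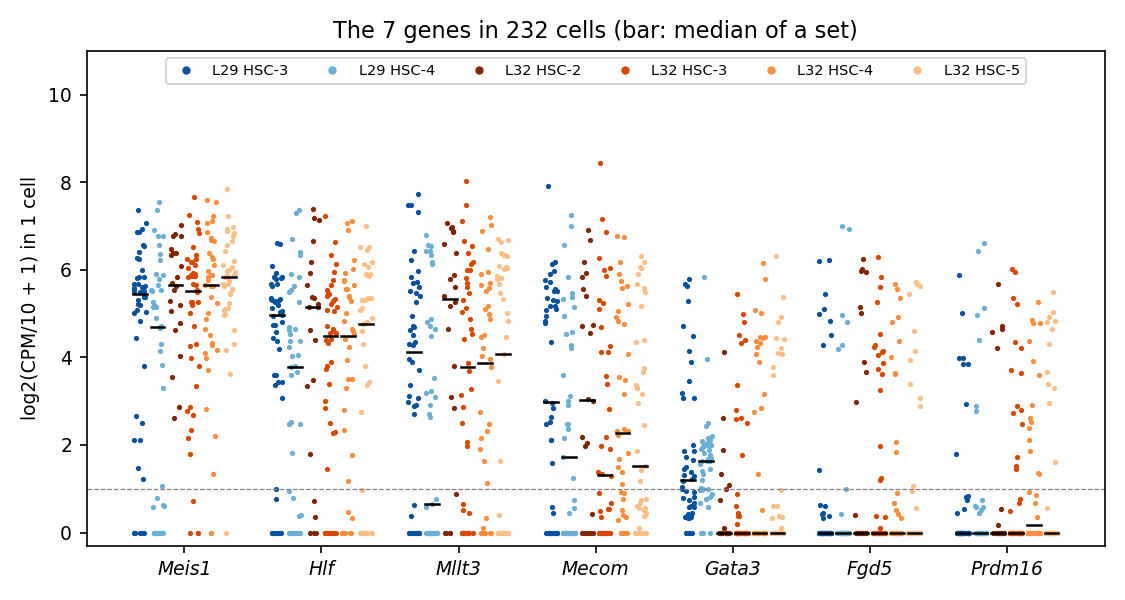
Level of each gene in each of the 232 cells as log2(CPM/10 + 1) (vertical axis), by set; bars are medians of a set and the dashed line is 10 CPM. Most Meis1 points lie between 4 and 7, most Fgd5 and Prdm16 points at 0, and Gata3 in L29 forms a band near the dashed line that L32 does not show.

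Levels were compared between genes per length, as TPM (reads scaled by gene length and total) of the summed counts of a set. Meis1 was at 93.9 ± 24.1 TPM (SD, n = 6 sets; 56.5 to 121), Hlf at 79.9 ± 20.8 (59.4 to 119) and Mllt3 at 51.2 ± 15.6 (25.4 to 64.4). Mecom was at 33.0 ± 9.5 TPM, Gata3 at 31.7 ± 29.4 (5.14 to 88.8), Fgd5 at 28.0 ± 15.1 and Prdm16 at 10.6 ± 2.7. By TPM over all kept cells, Meis1 exceeded 96.6% of all Ensembl genes and Prdm16 exceeded 83.1%. Neighbours in this order were compared, and the order came from the mean TPM of the same 6 sets, so pairs and directions were not fixed in advance. Hlf exceeded Mllt3, Mllt3 exceeded Mecom and Fgd5 exceeded Prdm16 in 6 of 6 sets. Each had an exact two-sided sign-flip permutation p of 0.03125, the smallest that 6 sets allow, and 0.0625 after adjustment over the 6 neighbouring pairs. The order of the other pairs was not shared by all sets. Meis1 exceeded Hlf in 4 of 6 sets (adjusted exact p = 0.281), Mecom exceeded Gata3 in 5 of 6 (0.487) and Gata3 exceeded Fgd5 in 3 of 6 (0.906).

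**Figure D3:**
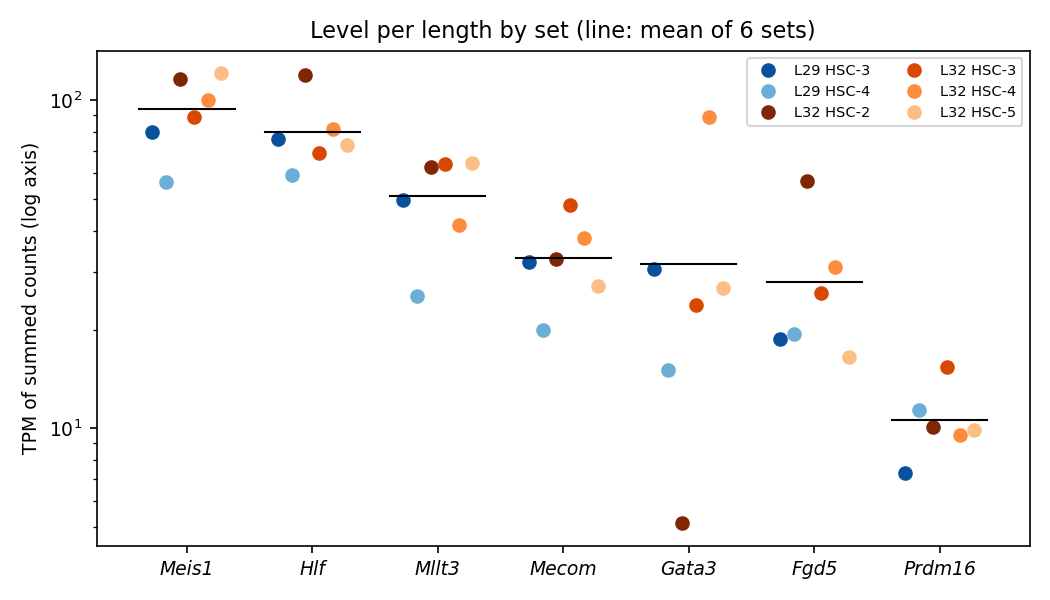
TPM of counts summed over the kept cells of a set (log axis) for each gene; points are the 6 sets and lines their mean. The order runs from Meis1 at 93.9 TPM to Prdm16 at 10.6 TPM, and Gata3 spans 5.14 to 88.8 TPM.

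A few high values stood apart. In CPM, Hlf was at 421 in L32 HSC-2 against 243 to 289 in the other sets, and Fgd5 was at 189 in the same set against 52.9 to 100. Gata3 was at 181 CPM in L32 HSC-4 against 10.8 to 68.8. One cell of L32 HSC-4 held 42.1% of that set's 2407 Gata3 reads, and without it the set stood at 118 CPM. Likewise 1 cell held 43.8% of the Fgd5 reads of L32 HSC-2, which stood at 122 CPM without it. For Mecom 1 cell held 48.5% of the reads of L32 HSC-4, which stood at 243 CPM with and 141 CPM without it.

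Wells with few gene reads were examined in the same way. In 38 wells of series 32 (22 of code HSC-2, 16 of code HSC-3) with fewer gene reads than spike-in reads, all in odd-numbered plate columns, the 616795 gene reads held Hlf at 17.8 CPM (exact Poisson 95% interval 8.9 to 31.9) against 314 in the kept cells of those sets. Meis1 was at 110 against 554 CPM and Mllt3 at 60.0 against 399.8 CPM. Mecom was at 98.9 (75.6 to 127) against 274 CPM, Fgd5 at 47.0 against 127, Prdm16 at 34.0 (21.1 to 52.0) against 65.1 and Gata3 at 14.6 against 34.1. All 7 genes were lower than in cells. In reads, such a well held 0.237 to 1.79 reads of a member on average, against 12.6 to 205 in a kept cell.

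Relatives of each gene were mostly rarer than the gene itself. Of the PAR leucine zippers and their antagonist, Tef was detected in 10.3% of cells, Dbp in 9.05% and Nfil3 in 2.16%, against 74.6% for Hlf. In the PR domain family 8 of 11 measured genes, with the corepressors Ctbp1 and Ctbp2 included, reached 10% of cells, led by Ctbp1 at 58.9 TPM and with Prdm4 at 10.9 TPM. Meis2 was detected in 1.29% and Meis3 in 7.76% of cells, so Meis1 was the main Meis gene by detection. Of the Hox genes that can act with it, Hoxa9 was detected in 48.3% of cells, and Hoxa9, Hoxa10 and Hoxa7 were at 44.5, 35.9 and 32.9 TPM.

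Among 21 genes of Mllt3 and its complexes, 17 reached 10% of cells. Yeats4, a YEATS domain relative, was the highest at 192.9 TPM, then the menin gene Men1 at 63.2 TPM, Mllt3 itself at 51.4 TPM over all cells and the elongation factor Ell at 39.7 TPM. Mllt1, the paralog of Mllt3, was detected in 13.8% of cells and Dot1l in 22.4%. Gata2, a central HSC factor, was detected in 66.4% of cells at 80.5 TPM, above Gata3, whereas Gata1 was detected in 2.59%. Fgd2 was at 36.1 TPM and in 19.8% of cells, and the target GTPase Cdc42 was in 86.6% of cells at 385 TPM. Among 23 other HSC regulators 20 reached 10% of cells, with Lyl1 (401 TPM), Lmo2 (381 TPM), Nkx2-3 (109 TPM) and Fli1 (108 TPM) at the top and Sox17 detected in 0 cells.

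Whether the genes rose and fell together in cells was described by partial Spearman correlations within each set, given the ranks of genes detected and of total reads and the plate. Mean rho over sets is weighted by the number of cells minus 3 (on the Fisher z scale), and the SD is that of the 6 sets. Cells of a set share a library series and plate, so these are descriptions without p-values. Of 21 pairs 15 had a positive and 6 a negative mean rho, with a median of 0.03, beside a median of -0.0015 for the members against all other genes. No pair had the same sign in 6 of 6 sets. For the members against all other genes, 1.63% of values were positive and 1.91% were negative in 6 of 6 sets.

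Hlf and Mllt3 had the highest mean rho, 0.168 ± 0.135 (SD, n = 6 sets), positive in 5 of 6 sets and -0.09 in L32 HSC-4. The PR domain genes Mecom and Prdm16 had 0.129 ± 0.198 and were positive in 5 of 6 sets. Prdm16 and Fgd5 had 0.113 ± 0.156, also positive in 5 of 6. With equal weight for each set these pairs stood in the other order, at 0.117 and 0.130, and Hlf with Mllt3 at 0.162. Within sets, Fgd5 was detected more often in Prdm16-positive than in Prdm16-negative cells in 5 of 6 sets (41.7% against 22.2% in L32 HSC-5, for example), on 5 to 15 Prdm16-positive cells a set, and in L29 HSC-4 it was in 0 of 7 against 16.7%. The lowest mean rho was -0.094 ± 0.133 for Hlf and Prdm16, negative in 5 of 6 sets. For 20 of the 21 pairs the SD over sets exceeded the size of the mean.

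**Figure D4:**
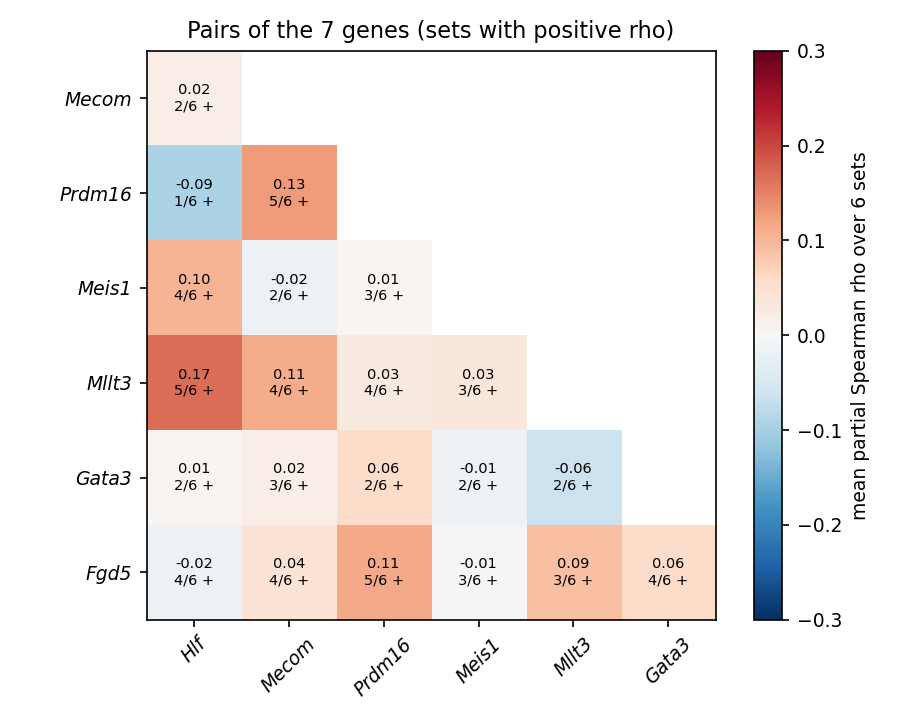
Mean partial Spearman rho over 6 sets for the 21 pairs (colour and upper number) and the number of sets with a positive rho (lower number). Hlf with Mllt3 is highest at 0.17 and Hlf with Prdm16 lowest at -0.09.

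The genes most like each member, by mean rho among genes positive in 6 of 6 sets, were different for each of the 7. Members, predicted genes, pseudogenes and genes without a symbol were left out of this choice. By mean rho over all genes, the first gene named for Prdm16 (Impa2) and for Meis1 (Lat) ranked 5, and those of the other members ranked 1. Txnip, an inhibitor of thioredoxin known for a role in HSC quiescence, led for Hlf (0.263 ± 0.151) and was at 0.261 ± 0.151 with Mllt3, positive in 6 of 6 sets for both. Ngly1 and Zfp57 followed for Hlf. For Mllt3 the sialyltransferase gene St8sia4 (0.355 ± 0.181), Net1 (0.319) and Pqlc3 (0.296) led. Mecom was most like Phf2 (0.262), a histone demethylase gene, Dcaf7 and the amino acid transporter gene Slc38a1. Prdm16 was most like Impa2 (0.253), Pdgfrl and Mri1, and Meis1 was most like the adaptor gene Lat (0.227), Smpd1 and Tspan6. Gata3 was most like the antiproliferative gene Btg1 (0.328), Aar2 and Vopp1, and Fgd5 like Zfp426 (0.334), the phosphatase subunit gene Ppp2r1a and Zbtb20. With 9688 genes ranked for each member, the top values were chosen as extremes. Detection of the named genes ran from 10.3% of cells (Zfp57) to 98.3% (Txnip). Of those that led for a member, Zfp426 was in 12.1%, Phf2 in 15.1% and Btg1 in 20.3% of cells, so their values rest on few cells a set.

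Over 149 listed genes and the 7 members, 19 of 1043 values (1.82%) were positive and 25 (2.40%) negative in 6 of 6 sets, beside the 1.63% and 1.91% of all genes, so such values were about as frequent in the lists. As examples, Hlf was positive with Kmt2a (0.162), the MLL methyltransferase gene, and with the surface gene Eng (0.169). Mllt3 was positive with Procr (0.228), the EPCR gene used to enrich HSCs. Negative in 6 of 6 sets were Mecom with Myc (-0.263), the growth factor-responsive transcription factor, and Hlf with the nucleolar genes Nop56 (-0.205) and Wdr43 (-0.184). The cell cycle gene Cks2 was positive with Mllt3 (0.119). Of 20 other HSC regulators, Hlf was positive with 14, Prdm16 with 13 and Meis1 and Gata3 with 12 each. Mllt3 was positive with 11 of them and Mecom and Fgd5 with 9 each. Of all other genes, 47.6% were positive with Hlf, and the members ranged from 46.4% (Gata3) to 54.1% (Prdm16). The genes named as examples were singled out after their values were seen.

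The study's title concerns division of HSCs, and the members were set against a proliferation score, the mean log value of 34 S-phase and 33 G2/M genes. Mllt3 had a mean rho of -0.146 ± 0.143 with the score, Hlf -0.134 ± 0.177 and Gata3 -0.130 ± 0.209, each negative in 4 of 6 sets. The 5th percentile of all 9689 genes was -0.124, and with equal weight for each set the 3 values were -0.141, -0.103 and -0.125. The score rests mainly on S-phase genes, of which 25 of 34 reached 10% of cells, against 3 of 33 G2/M genes. With the S-phase genes alone, Mllt3 was at -0.154, Hlf at -0.152 and Gata3 at -0.123. With the G2/M genes alone they were at -0.041, -0.012 and 0.035, and Hlf was then positive in 5 of 6 sets. For the whole score Fgd5 was at -0.077, Meis1 at 0.002, Mecom at 0.026 and Prdm16 at 0.065. Of the 7 genes 0 had the same sign in 6 of 6 sets, a property of 3.55% of all genes in the positive and 1.8% in the negative direction.

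Single sets carried much of these values. For Hlf the rho was -0.401 in L29 HSC-3 and -0.15 to 0.129 elsewhere, and without that set the mean was -0.062. For Gata3 it was -0.487 in L29 HSC-4, the set with the low band of reads in 86.0% of cells, and without it the mean was -0.039. For Mllt3 it was -0.300 and -0.203 in the L29 sets, -0.143 and -0.258 in L32 HSC-2 and L32 HSC-5, and 0.045 and 0.016 in the other 2 sets. By single genes, Mllt3 was negative with 23 of 25 S-phase genes and Hlf with 22. Fgd5 was negative with 19, Gata3 with 17, Meis1 with 15, Mecom with 11 and Prdm16 with 9. Of 9688 other genes in all, 5109 were negative with Mllt3, 5077 with Hlf, 5099 with Fgd5 and 5197 with Gata3. For Meis1, Mecom and Prdm16 these were 4925, 4590 and 4446. The 22 growth genes were mostly of ribosome biogenesis, with Myc and genes of translation, polyamine and nucleotide synthesis and mitochondrial protein folding. Hlf was negative with 19 of them and Mllt3 and Gata3 with 18 each. Mecom and Prdm16 were negative with 16 each, Fgd5 with 14 and Meis1 with 8. The genes of such a list vary together, so they are not separate counts.

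Cells of each set were then divided at the median of the score, after regression on depth, genes and plate, and counts were summed into 12 samples. The 115 high-score and 115 low-score cells had medians of 5034 and 5410 genes. Hlf was at 335 ± 106 CPM in low-score and 253 ± 68 CPM in high-score cells (SD, n = 6 sets) and Mllt3 at 409 ± 164 and 264 ± 77 CPM, each lower in 5 of 6 sets. Mecom was at 288 ± 84 and 157 ± 55 CPM, lower in 5 of 6 sets, but it was detected in about as many cells, 59.0% ± 10.6 and 61.4% ± 12.7, and 49.9% of its CPM lay in the 23 highest of all cells. On mean log values its difference was -0.36 (SE 0.27, adjusted p = 0.835, limma). The change of Mecom was a log2 difference of -0.88 (SE 0.25, unadjusted p = 0.00892), with an adjusted p of 0.999 by edgeR's quasi-likelihood test with Benjamini-Hochberg adjustment, and it was 0.42 under a stricter cell filter that keeps 198 cells. For Mllt3 the log2 difference was -0.55 (SE 0.28, adjusted p = 0.999) and for Hlf -0.37 (SE 0.21, adjusted p = 0.999) by the same test.

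None of the 7 passed the test, and neither did any other gene. By edgeR 0% of 12553 genes were higher and 0% lower, with 475 at an unadjusted p under 0.05, although the S-phase genes that define the score differed by a median log2 of 2.95. In simulated data of this comparison with 12203 genes, edgeR found 11% of 4-fold and 0% of 2-fold changes. In another simulation, limma on mean log values found 42% of shifts of 1 and 3% of shifts of 0.5 among 9689 genes. There limma also called 6 genes that had not been changed, against 0 for edgeR in its simulation. DESeq2 called 97 genes higher and 69 lower, none of them a member. In limma on the mean log value of cells, 0% were called, and Mllt3 had the smallest p of the 7 genes, with a difference of -0.76 (SE 0.26, unadjusted p = 0.0173, adjusted p = 0.655). By summed CPM, Meis1 was higher in high-score cells in 5 of 6 sets, at 559 ± 75 against 512 ± 170 CPM. Its log2 difference was 0.21 (edgeR, adjusted p = 0.999) and turned to -0.15 under the stricter cell filter. On mean log values Meis1 was higher in 3 sets and lower in 3, with a difference of 0.24 (SE 0.24, limma, adjusted p = 0.882).

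The relatives and partners of the members also held no gene that passed. By edgeR 0 of 14 TALE and Hox genes, 0 of 19 genes of Mllt3 and its complexes, 0 of 9 PR domain and corepressor genes and 0 of 6 Fgd family genes (Cdc42 included) were called between low-score and high-score cells, counts that include the members. Their median log2 differences were -0.03, -0.09, -0.08 and -0.50, where all 12553 genes had -0.01. Of 22 other HSC regulators 13 were higher and 9 lower in high-score cells, with a median of 0.16 and 0 called, where 6140 of all 12553 genes were higher. By limma on mean log values that balance turned, with 9 higher and 11 lower and a median of -0.04. Of 22 growth genes 17 were higher by edgeR, with a median of 0.28 and 0 called, and 17 by limma.

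**Figure D5:**
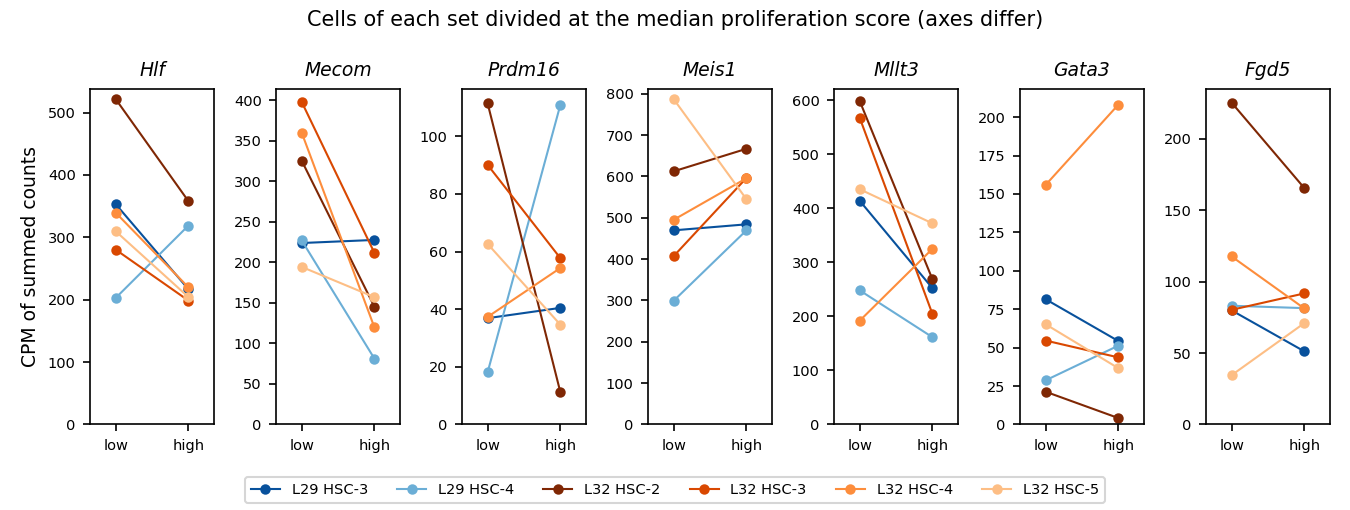
CPM of each gene in low-score and high-score cells (horizontal axis) of the 6 sets, joined by lines; the vertical axes start at 0 and differ between genes. Lines of Hlf, Mecom and Mllt3 run down in 5 of 6 sets and lines of Meis1 run up in 5 of 6, and 0 of the 7 genes passed the test.

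Summed levels were compared between the library series with the 4 L32 and 2 L29 sets, whose difference the labels do not explain. Meis1 was at 493 to 651 CPM in L32 and at 476 and 390 CPM in L29, a log2 difference of 0.52 (SE 0.20) with an adjusted p of 0.543 by edgeR's quasi-likelihood test. By the same test Mllt3 differed by 0.52 (SE 0.29, adjusted p = 0.641) and Fgd5 by 0.63 (SE 0.55, adjusted p = 0.781). Gata3 differed by 0.53 (SE 0.99, adjusted p = 0.912) and by -0.44 without L32 HSC-4, the set with the high cell. By edgeR 0% of 16476 genes were called higher and 0% lower, with 1433 at an unadjusted p under 0.05. The median gene moved by 0.07.

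In limma on mean log values 0.248% of 9689 genes were higher in L32 and 0.361% lower, and 0 of the 7 genes were among them. Meis1 differed by 1.15 (SE 0.35, adjusted p = 0.145), Fgd5 by 0.64 (SE 0.26, adjusted p = 0.238) and Prdm16 by 0.45 (SE 0.17, adjusted p = 0.199), where the median gene moved by 0.18. For Gata3 the value was -0.49 (SE 0.31, adjusted p = 0.416), with the opposite sign to the summed reads. L29 and L32 also differ in the number of genes per cell in L29 HSC-4, and batch and series cannot be told apart here.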

How the data were processed

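The deposited table holds counts of reads for every gene in every well, with a gene length column; GSNAP, featureCounts (1.6.2) and build mm10 are named in the submitters' processing notes, and Ensembl release 87 in the table's name. The cDNA of poly(A) RNA was amplified with 22 PCR cycles, per the labels' protocols. The deposited spike-in rows (92, 11.7% of counts) and the transgene row stayed out of totals. No source used here states the handling of multi-mapped reads.

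From the counts, CPM per cell or set, TPM from the length column and log2(CPM/10 + 1) were computed (Python 3.11.15, numpy 2.4.6, scipy 1.17.1, pandas 2.3.3; R 4.3.3, edgeR 4.0.16, DESeq2 1.42.0, limma 3.58.1). All 232 kept count columns differed from one another. No doublet caller was run, since wells received single sorted cells. edgeR used TMM scaling and its expression filter, with the set as block for the score groups and an adjusted p threshold of 0.05. edgeR and limma were tested on simulated data. The members and gene lists were chosen with earlier results of these data known. Named genes were drawn from the members, the 3 most like each by mean rho (with the exclusions given above), the 4 highest by TPM of a list and markers at 0. Gate genes, paralogs and listed genes of 1 sign were added after their values were seen. DESeq2, other filters, thinning and leaving out each set were tried as alternatives. A few listed genes are not reported here.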

Additional observations from a re-analysis of the deposited data

Results flagged for a closer look

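In 4 cases, the value of a set stood apart from the other 5 sets by Dixon's criterion (gap over range above 0.625), out of 21 groups of 6 values examined, and chance flags about 1 in 20 groups. Meis1 detection was 65.1% in L29 HSC-4, where cells also had the fewest genes. Hlf reached 421 CPM and Fgd5 189 CPM in L32 HSC-2, the set with 22 kept cells. Gata3 reached 181 CPM in L32 HSC-4, where 1 cell held 42.1% of the reads.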

How the results depend on the processing

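No paired analysis was possible because all cells belong to 1 group and replicate numbers only name cells; the block of the score groups is the set. Alternative values stayed within 1 SD over sets of the main value for the score correlation (91), the pairs (252) and the levels (56). For correlations this limit is wide, since the SD exceeded the size of the mean for 20 of 21 pairs. A change of sign could pass it, as for Gata3 against the score, from -0.130 to 0.035 with the G2/M genes alone. Staying within it thus says little of how stable a correlation was. Equal weights per set were added after seeing the data. Detection of Mecom was 73.3% at 1 count and 45.8% at 50 CPM, and that of Gata3 was 21.7% at 50 CPM; the other 67 alternative detection values stayed within 1 SD.

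For the score groups, DESeq2 called 166 genes, and all other alternatives called 0. Prdm16 changed sign to 0.50 without regression of the score on depth, 0.20 when the middle cells were left out and 0.14 under the stricter filter. Meis1 changed to -0.046 without the middle cells and -0.15 under the stricter filter, where Mecom changed to 0.42. Leaving out sets gave -0.76 to 0.29 for Prdm16 and -0.27 to 0.068 for Fgd5.

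For the library series, DESeq2 called 410 genes, limma on mean log values, chosen after seeing the data, 59, no low-count filter 2 and the stricter filter 1. Under the stricter filter Prdm16 changed sign to -0.077 and Gata3 to -0.20, and in limma Mecom to -0.044 and Gata3 to -0.49. Leaving out sets gave -0.036 to 0.31 for Hlf, -0.33 to 0.62 for Prdm16 and -0.44 to 0.94 for Gata3. The cause of these changes was not tested. In simulated data of this comparison (15675 genes), edgeR found 0% of 4-fold changes and limma 0% of log shifts of 1 (9689 genes), so a count of 0 shows little here.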
